A study of Mus musculus with 8 samples.

Results

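A set of 10 transcription factors of visceral fat stroma and of the lining of the body cavity was followed in cultured mouse adipose-derived stem cells (ADSCs). The set was Wt1, Gata4, Gata6, Tcf21, Tbx18, Osr1, Ebf1, Ebf2, Nr2f1 and Nr2f2. These genes were picked by symbol from their known roles, with earlier results of these data known, and all 10 were found among the 24346 symbols listed. RNA sequencing had been performed on 8 primary cultures of wild-type (WT) BALB/c cells, 4 grown in 2D from mice numbered 2, 3, 4 and 5 and 4 grown in 3D from mice numbered 1, 4, 5 and 7. Mice 4 and 5 gave a library in each culture, and libraries are named here by culture and mouse, as in 2D mouse 3. According to the methods of the study, the cells came from the gonadal fat of 12-week-old male mice, and the 3D cultures grew in Matrigel, a basement membrane gel. Several contents of Wnt3a- and R-Spondin1-conditioned medium, none included, were tried in the study, and the medium and passage of the sequenced cells are not given in the sources used here. The description of 3D mouse 1 carries the number 13 where those of the other 7 libraries carry the culture, while its title and group label say 3D.

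Gonadal fat is a visceral depot covered by mesothelium, the thin epithelium that arises from the coelomic lining of the embryo. WT1, GATA4 and GATA6 are zinc finger factors of that lining and of the mesenchyme beneath it, and WT1 is known as a mark of visceral fat progenitors. TCF21, TBX18 and OSR1 are factors of mesenchyme derived from coelomic epithelium and lateral or intermediate mesoderm. EBF1 and EBF2 act early in the adipocyte lineage, and the nuclear receptors NR2F1 and NR2F2, also called COUP-TFI and COUP-TFII, are widespread in mesenchyme.

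The values per library are FPKM as deposited, that is, fragments scaled to transcript length and to the fragments mapped in the library. Differences (3D minus 2D) are on the log2(FPKM + 1) scale after quantile normalization, with the standard error (SE) and the adjusted p of limma's moderated test. The low values of single-transcript genes gave an estimated depth of 16430000 to 17340000 fragments per 2D library and of 14520000 to 15680000 fragments per 3D library. A level under that of 3 fragments was taken as not detectable at this depth.

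Libraries stood apart within the 2D cultures. Over 8 mesothelial markers (all those listed but the keratin Krt19), the summed level was 824 and 2338 FPKM in 2D mice 3 and 4. It was 1.47 and 0.457 FPKM in 2D mice 2 and 5, and between 0.887 and 30.3 FPKM in the 3D libraries. Msln, the mesothelial surface protein mesothelin, was at 256 and 785 FPKM in 2D mice 3 and 4, and at 0.241 and 0.182 FPKM in 2D mice 2 and 5. Tests of most factors are therefore also given without 2D mice 3 and 4, a choice made after the values were seen. For other genes a call lost by that omission is stated. In bulk RNA, fewer cells of a type and less RNA per cell cannot be told apart.

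The labels call the cells of both cultures mesenchymal stem cells. In the 2D libraries the fibrillar collagen Col1a1 was at 295 to 824 FPKM and Thy1, a surface marker of stromal cells, at 70.3 to 350 FPKM, whereas in the 3D libraries both were at or below 0.123 FPKM. Pdgfrb and Dcn, further stromal markers, were listed at 0 in all 4 of the 3D libraries. Over all genes tested, 20.3% were lower and 21.2% higher in 3D (limma). Of 12 stromal markers, 8 fell and 2, Dpp4 and Ly6a, rose (limma, median difference -2.80), with 7 lower and 0 higher without 2D mice 3 and 4. Of 8 epithelial markers, 7 rose and none fell (median difference 7.18). The adhesion molecules Cdh1 and Epcam were at 227 to 305 and 212 to 416 FPKM in the 3D libraries against at most 0.725 and 0.031 FPKM in the 2D libraries. The keratins Krt8 (27.8 and 296 FPKM) and Krt18 (129 and 287 FPKM) were also present in 2D mice 3 and 4. Summed epithelial markers were at 160 and 658 FPKM in 2D mice 3 and 4 against 4.87 and 3.14 FPKM in 2D mice 2 and 5. Col1a1, Thy1, Pdgfrb and Dcn were thus at or near 0 in the cultures labelled 3D, against the label. Other stromal markers were not, with Ly6a at 50.3 to 2607 FPKM, Dpp4 at 1.13 to 6.42 FPKM and Cd34 at 0.152 to 2.40 FPKM there. The part of these marker levels in the differences below was not tested.

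Of the 10 factors, 5 fell in 3D cultures and none rose. Gata6, Tbx18, Osr1, Ebf1 and Ebf2 fell, with every 2D library above every 3D library. Wt1, Gata4, Tcf21, Nr2f1 and Nr2f2 did not pass the test. Calls were frequent in this comparison, as 41.5% of the 18862 genes tested passed an adjusted p of 0.05 (limma), 20.3% as lower and 21.2% as higher in 3D, and 20.9% of genes had every 2D library above every 3D library and 21.6% the reverse. In exact two-sided permutation tests over the libraries, p was 0.0286 for each of the 5 factors that fell, the smallest that 4 against 4 libraries can give, and 0.0571 for Nr2f2, 0.114 for Nr2f1, 0.2 for Wt1, 0.429 for Gata4 and 1 for Tcf21. The median difference was -2.04 over the 10 factors and 0.0012 over all genes tested. With the mouse as a block, a fit with 1 residual degree of freedom, no gene of the whole table passed (0 calls by limma, with 5216 genes at an unadjusted p under 0.05), and the smallest adjusted p of a factor was 0.111.

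The summed level of the 10 factors was 51.6, 128, 175 and 69.9 FPKM in 2D mice 2, 3, 4 and 5. In 3D mice 1, 4, 5 and 7 it was 14.3, 10.2, 10.5 and 11.3 FPKM. All 2D libraries lay above all 3D libraries, and Nr2f2 alone was the highest factor in each 3D library. Between 7 and 9 factors reached 1 FPKM in a 2D library, and 2, Nr2f1 and Nr2f2 or Wt1 and Nr2f2, in each 3D library.

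**Figure D1:**
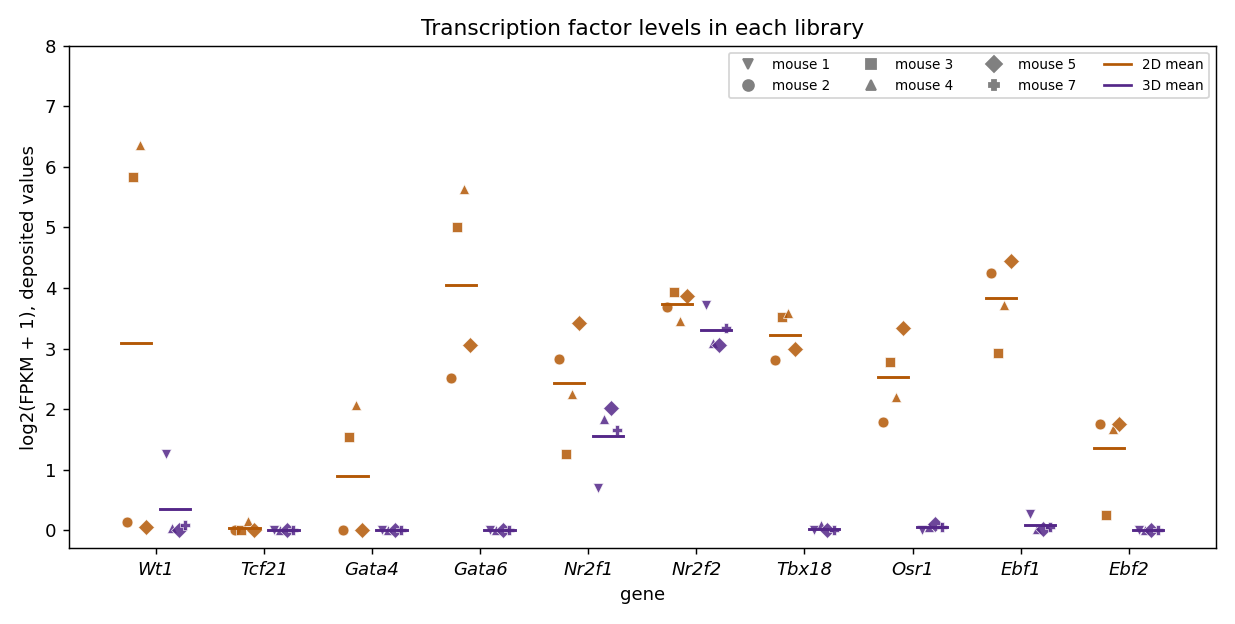
FPKM of the 10 factors in each of the 8 libraries, as log2(FPKM + 1). Points are single libraries (2D orange, 3D purple, with 1 marker shape per mouse) and bars are the means of each culture. Gata6, Tbx18, Osr1, Ebf1 and Ebf2 lie at or near 0 in the 3D libraries, whereas Nr2f2 stays between 7.37 and 14.4 FPKM in all 8.

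Among the factors of the lining, Wt1 was divided within the 2D cultures. It lies at chr2:105126529-105173616 on the plus strand (GRCm38, GENCODE M21, the annotation of all gene positions given here). Wt1 was at 55.9 and 81.1 FPKM in 2D mice 3 and 4 and at 0.0989 and 0.0400 FPKM in 2D mice 2 and 5. In 3D mice 1, 4, 5 and 7 it was at 1.40, 0.0213, 0 and 0.0633 FPKM. The groups overlapped, since 3D mouse 1 exceeded 2D mice 2 and 5. The difference was -2.78 (SE 1.51, 95% interval -6.28 to 0.72, adjusted p = 0.181 by limma), within the spread between libraries. Without 2D mice 3 and 4, the 2D libraries in which Wt1 was high, it was 0.13. Without 2D mice 2 and 5, the 2D libraries in which Wt1 was near 0, it was -5.57. No test is given for either value, since each omission fixes the outcome.

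Gata4 (chr14:63198922-63271692, minus strand) showed the same division at a lower level. It was at 1.90 and 3.18 FPKM in 2D mice 3 and 4 and listed at 0 in the other 6 libraries. The difference was -0.94 (SE 0.49, adjusted p = 0.166, limma). It was -1.94 when 2D mice 2 and 5, in which Gata4 was 0, were left out, again with no test, and no value could be had without 2D mice 3 and 4, where Gata4 was 0 throughout.

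Gata6 (chr18:11052064-11085635, plus strand) was at 4.74, 31.1, 48.5 and 7.29 FPKM in 2D mice 2, 3, 4 and 5. It was listed at 0 in all 3D libraries. The 2D libraries of mice 3 and 4 were the highest, but 2D mice 2 and 5 also lay far above the level of 3 fragments. Gata6 fell by 4.07 (SE 0.61, 95% interval -5.49 to -2.65, adjusted p = 0.00140, limma), and its mean was at least 359-fold lower when 3D libraries were set to 3 fragments each. That bound was 225-fold without 2D mouse 4 and 94.1-fold without 2D mice 3 and 4. Gata6 fell by 2.94 without 2D mice 3 and 4 (adjusted p = 5.3e-05, limma). In the fit with the mouse as a block the adjusted p was 0.156, and with mice 4 and 5 alone 0.0542 (limma).

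Other genes known from the coelomic lining were divided in the same libraries. Bnc1, the zinc finger factor basonuclin 1, was at 30.7 and 27.7 FPKM in 2D mice 3 and 4 and between 0 and 1.42 FPKM elsewhere. Hand2, a basic helix-loop-helix factor of lateral mesoderm, was at 21.4 and 12 FPKM there and at or below 0.057 FPKM in the other 6 libraries. The mesothelial marker Upk3b was at 203 and 555 FPKM there and at or below 0.1 FPKM elsewhere. Neither Bnc1 (adjusted p = 0.222) nor Hand2 (adjusted p = 0.145) nor Upk3b (adjusted p = 0.169) passed the limma test of the cultures. Of the 8 mesothelial markers tested, Krt19 included and Calb2 left out as 0 throughout, none fell and Krt19, a keratin also of other epithelia, rose, with a median difference of -2.31.

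**Figure D2:**
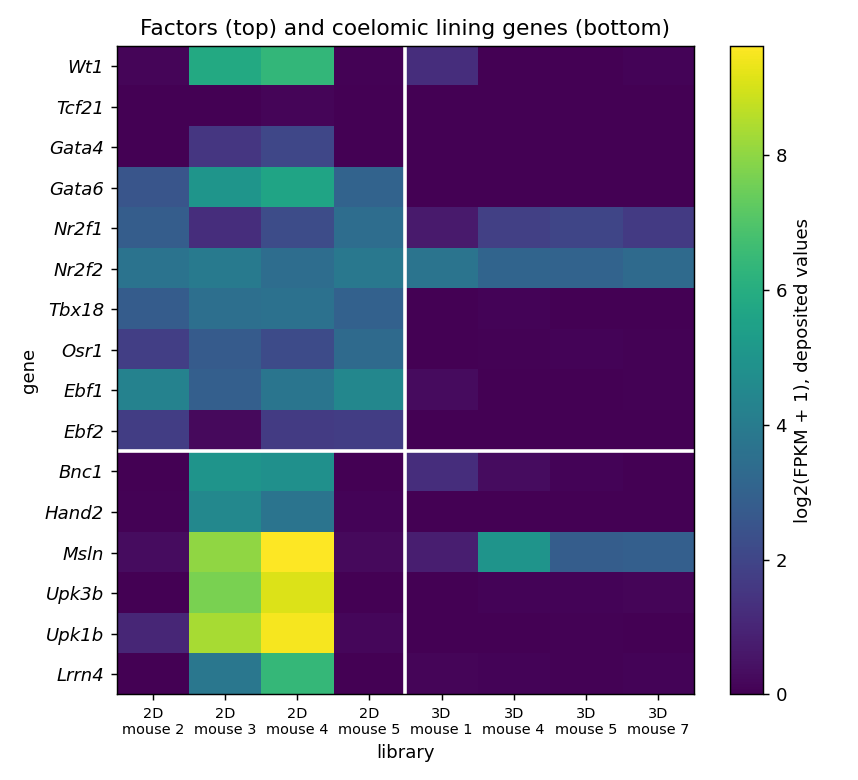
Heat map of the 10 factors (top rows) and 6 coelomic lining genes (bottom rows) in each of the 8 libraries (columns), with colour for log2(FPKM + 1). The 2D libraries of mice 3 and 4 hold Wt1 at 55.9 and 81.1 FPKM and Msln at 256 and 785 FPKM, whereas Gata6 is above 4 FPKM in all 4 of the 2D libraries.

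Among the mesenchymal factors, Tbx18 and Osr1 fell and Tcf21 was not detectable. Tbx18 (chr9:87702800-87731260, minus strand), a T-box repressor of epicardial and urogenital mesenchyme, was at 6.02, 10.5, 11.0 and 6.91 FPKM in 2D mice 2, 3, 4 and 5. In 3D it was at 0.0548 FPKM in 3D mouse 4, and 0 in the other 3. All 2D libraries were high, within a narrow range. Tbx18 fell by 3.28 (SE 0.18, 95% interval -3.70 to -2.85, adjusted p = 9.6e-06, limma). Within mouse 4 its difference was -3.55 and within mouse 5 -3.07, and without 2D mice 3 and 4 it was -3.02 (adjusted p = 1.34e-05, limma). The adjusted p with the mouse as a block was 0.111 (limma).

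Osr1 (chr12:9570116-9581500, plus strand), an early factor of intermediate and lateral mesoderm, was at 2.45, 5.84, 3.58 and 9.12 FPKM in 2D mice 2, 3, 4 and 5. It was at 0, 0.0344, 0.0730 and 0.0339 FPKM in 3D mice 1, 4, 5 and 7. The 2D levels did not follow the mesothelial markers, since 2D mouse 5 was the highest. Osr1 fell by 2.58 (SE 0.29, adjusted p = 0.000302, limma). Without 2D mice 3 and 4 the difference was -2.68 (adjusted p = 0.00264, limma), and with the mouse as a block the adjusted p was 0.132 (limma).

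Tcf21 (chr10:22817281-22820174, minus strand), the basic helix-loop-helix factor of visceral mesenchyme, was at 0.108 FPKM in 2D mouse 4 and 0 in the other 7 libraries. That value is below the level of 3 fragments, 0.137 FPKM in that library. A difference between the cultures was not detectable at this depth (adjusted p = 0.460, limma).

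Both EBF factors of the adipocyte lineage fell. Ebf1 (chr11:44617317-45008091, plus strand), a factor of early B cells and of preadipocytes, was at 18.1, 6.57, 12.2 and 20.8 FPKM in 2D mice 2, 3, 4 and 5. In 3D mice 1, 4, 5 and 7 it was at 0.204, 0.0128, 0.0136 and 0.0365 FPKM. The lowest 2D level was that of mouse 3, and the highest 3D level that of mouse 1. Ebf1 fell by 3.75 (SE 0.30, 95% interval -4.45 to -3.05, adjusted p = 6.1e-05, limma), and 3D mice 4, 5 and 7 were under the level of 3 fragments. Without 2D mice 3 and 4 the difference was -4.21 (adjusted p = 1.38e-05, limma), an omission that removes the lowest 2D level and favours a call. With the mouse as a block the adjusted p was 0.111 (limma).

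Ebf2 (chr14:67233292-67430918, plus strand), known for its part in brown and beige adipocyte precursors, was at 2.37, 0.187, 2.19 and 2.39 FPKM in 2D mice 2, 3, 4 and 5 and 0 in all 3D libraries. The 2D library of mouse 3 stood apart as low. Ebf2 fell by 1.49 (SE 0.37, adjusted p = 0.0132, limma) and its mean was at least 24.0-fold lower. Without 2D mice 3 and 4 the difference was -2.0 (adjusted p = 1.22e-05, limma). That omission removes 2D mouse 3, the low library, and so favours a call. Without 2D mice 2 and 5 the difference was -1.06 (adjusted p = 0.0892, limma), and with the mouse as a block the adjusted p was 0.111 (limma).

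The COUP-TF receptors were the factors still present in every 3D library. Nr2f2 (chr7:70351944-70366735, minus strand) was at 11.8, 14.4, 9.92 and 13.6 FPKM in 2D mice 2, 3, 4 and 5 and at 12.1, 7.5, 7.37 and 9.07 FPKM in 3D mice 1, 4, 5 and 7. The groups overlapped through 3D mouse 1. The difference was -0.50 (SE 0.18, 95% interval -0.92 to -0.07, adjusted p = 0.0629, limma), a 1.38-fold lower mean. It passed when the test was limited to genes averaging 1 FPKM or more (adjusted p = 0.0440, limma). It also passed without 3D mouse 1 (-0.66, adjusted p = 0.0127, limma), the library behind the overlap, an omission that favours a call. It did not pass without 2D mice 3 and 4 (-0.52, adjusted p = 0.118, limma).

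Nr2f1 (chr13:78188973-78199757, minus strand) was at 6.07, 1.38, 3.76 and 9.74 FPKM in 2D mice 2, 3, 4 and 5 and at 0.618, 2.55, 3.04 and 2.14 FPKM in 3D mice 1, 4, 5 and 7. The groups overlapped through 2D mouse 3, the lowest of its culture. The difference was -1.10 (SE 0.51, 95% interval -2.27 to 0.077, adjusted p = 0.122, limma). The difference was called only in fits that left out 2D mouse 3, the library behind the overlap, an omission that favours a call. It was -1.49 without that library (adjusted p = 0.0307, limma) and -1.78 without 2D mice 3 and 4 (adjusted p = 0.0236, limma). Leaving out 2D mouse 2, 4 or 5 alone gave no call (adjusted p = 0.240, 0.161 and 0.261, limma). Leaving out 2D mice 2 and 5 gave -0.41 (adjusted p = 0.574, limma).

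**Figure D3:**
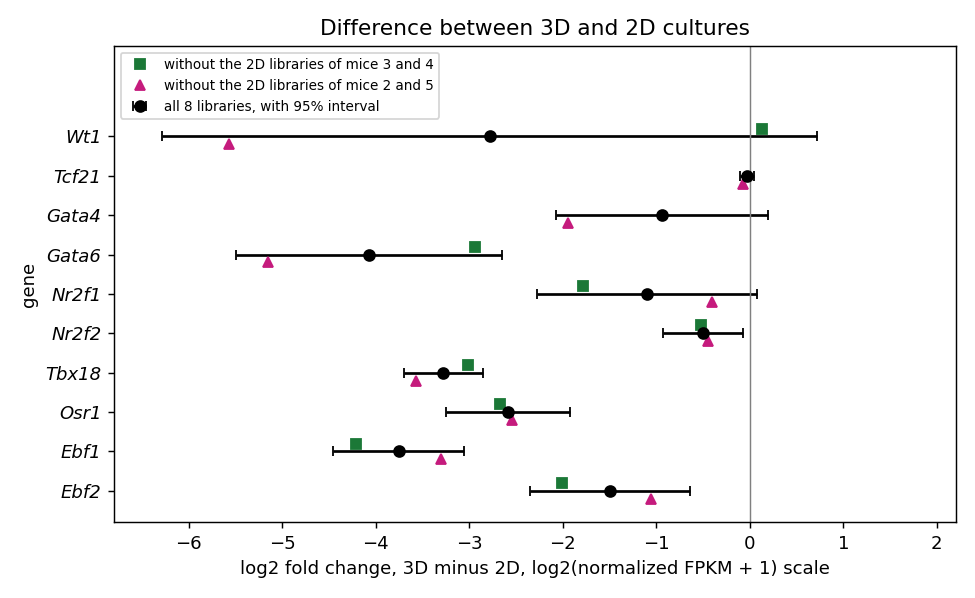
Differences between 3D and 2D cultures (3D minus 2D, log2 of FPKM + 1 after quantile normalization) of the 10 factors, with circles for the estimates over all 8 libraries and bars for the 95% intervals of limma's fit. Squares are estimates without 2D mice 3 and 4, triangles without 2D mice 2 and 5, and squares are missing where a gene was then 0 throughout. The intervals of Gata6, Tbx18, Osr1, Ebf1, Ebf2 and Nr2f2 lie below 0, the last at an adjusted p of 0.0629.

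The stretches upstream of the transcript start are shown for a factor that fell to near 0 in 3D cultures (Tbx18), a factor with an alternative start within its gene (Ebf1) and the factor that stayed highest (Nr2f2), so that their base makeup can be compared. They are the 250 bases before RefSeq starts (GRCm38.p6), read 5′ to 3′ on the strand of the gene, with each CG dinucleotide in capitals. They lie at chr9:87731261-87731510 (minus strand) for Tbx18, chr11:44619978-44620227 (plus strand) for Ebf1 and chr7:70366747-70366996 (minus strand) for Nr2f2. Exons of the noncoding genes D030062O11Rik and B130024G19Rik lie on the opposite strand of the Tbx18 and Nr2f2 stretches, respectively.
Tbx18: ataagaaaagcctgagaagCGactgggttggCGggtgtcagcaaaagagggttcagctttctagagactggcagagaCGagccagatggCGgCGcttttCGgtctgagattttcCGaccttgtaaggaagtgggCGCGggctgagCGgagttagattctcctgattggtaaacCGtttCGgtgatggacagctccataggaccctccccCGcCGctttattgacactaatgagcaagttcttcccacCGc
Ebf1: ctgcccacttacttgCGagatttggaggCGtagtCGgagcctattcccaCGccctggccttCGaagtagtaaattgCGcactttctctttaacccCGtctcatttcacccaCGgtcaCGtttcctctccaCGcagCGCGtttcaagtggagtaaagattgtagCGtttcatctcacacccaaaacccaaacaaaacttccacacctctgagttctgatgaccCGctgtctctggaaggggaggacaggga
Nr2f2: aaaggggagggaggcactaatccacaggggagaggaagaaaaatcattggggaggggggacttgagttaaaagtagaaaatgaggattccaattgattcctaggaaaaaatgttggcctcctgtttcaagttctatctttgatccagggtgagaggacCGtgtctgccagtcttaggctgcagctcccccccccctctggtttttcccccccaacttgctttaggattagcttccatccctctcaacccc
The Tbx18 and Ebf1 stretches held 15 and 14 CG dinucleotides, that of Nr2f2 held 1, and the median over all 32851 RefSeq windows was 6. The counts did not divide the factors by their change, as the windows at both RefSeq starts of Nr2f1 held 22 and 2, the other window of Ebf1 held 9 and that of Tcf21 held 5, none of which is printed because they overlap exons. Searched on both strands, the T-box site TCACACC was found in the Ebf1 stretch, at position 173 from its 5′ end, but not in the other Ebf1 window, and in 3.33% of all windows. The GATA site AGATAA (9.99% of windows), the nuclear receptor site AGGTCA (14%), the E-box CAGCTG (13%) and the TATA box TATAAA (12.4%) had no match in the 3 stretches. These matches are descriptions of the letters in each window.

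Paralogs were set side by side within each library. The log2 difference of Gata4 to Gata6 was -3.13 ± 0.31 (SD, n = 4) among 2D cultures, and 0 in every 3D culture, where both were 0. In 2D mice 2 and 5 Gata4 was 0, so the value there is set by Gata6 alone and the SD is not that of a ratio. The log2 difference of Ebf1 to Ebf2 averaged 2.33 ± 0.29 (SD, n = 4) among 2D cultures, compared with 0.068 ± 0.076 (SD, n = 4) among 3D cultures. Between Nr2f1 and Nr2f2 the average was -1.23 ± 0.97 (SD, n = 4) among 2D cultures, compared with -1.83 ± 0.95 (SD, n = 4) among 3D cultures, a change within the spread between libraries (exact two-sided permutation test, p = 0.429, adjusted over 3 pairs 0.429). For the GATA and EBF pairs, the 3D difference is near 0 because both genes were at or near 0, so no test is given and whether the paralogs fell by different folds was not detectable.

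In order of mean level (FPKM, which is per length), the 2D cultures held Wt1, Gata6, Ebf1, Nr2f2, Tbx18, Osr1, Nr2f1, Ebf2, Gata4 and Tcf21, and the ranges of all neighbours in that order overlapped. In 3D cultures Nr2f2 came first, above Nr2f1 in all 4 libraries without overlap, and the ranges of the remaining neighbours overlapped.

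Among 18 relatives of the same families tested, 3 fell and 5 rose (median difference -0.02), a share close to the 41.5% of all genes tested that passed. Gata2, a GATA factor also of preadipocytes, was at 5.35 to 10.6 FPKM in 2D and at 0.0201 to 0.387 FPKM in 3D, and fell by 3.00 (SE 0.21, adjusted p = 3.02e-05, limma). Gata3, a GATA factor of several epithelia, was at 0.517 to 1.10 FPKM in 2D and at 21.5 to 28.9 FPKM in 3D, and rose by 3.90 (SE 0.17, adjusted p = 2.75e-06, limma). Gata6 and Gata2 were thus the GATA factors above 4 FPKM in all 2D libraries, and Gata3 the one above 4 FPKM in 3D libraries.

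T-box relatives moved in both directions. Tbx15, a factor of the limb and body wall mesenchyme and of some fat depots, was at 11.8 to 29.7 FPKM in 2D and at 0.136 to 0.932 FPKM in 3D, and fell by 3.80 (SE 0.30, adjusted p = 6e-05, limma). Tbx3, a repressor of the same family as Tbx2, was at 1.37 to 4.01 FPKM in 2D and at 24.6 to 30.9 FPKM in 3D, and rose by 2.87 (SE 0.27, adjusted p = 0.000129, limma). Tbx2 was at or below 0.215 FPKM in the 2D libraries and at 106, 11.0, 6.73 and 9.94 FPKM in 3D mice 1, 4, 5 and 7 (3.99, SE 0.85, adjusted p = 0.00729, limma), so that mouse 1 was highest. Of the remaining relatives, Ebf3 fell (adjusted p = 0.0466), and Ebf4 (adjusted p = 0.0343) and Nr2f6 (adjusted p = 0.0157) rose (limma). The call of Nr2f6 was lost without 2D mice 3 and 4 (adjusted p = 0.0719), and those of Ebf3 (adjusted p = 0.224) and Ebf4 (adjusted p = 0.197) without 2D mice 2 and 5 (limma).

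Of 11 partner proteins, 6 fell and 1 rose (median difference -0.27), against 20.3% lower and 21.2% higher over all genes tested. The GATA cofactors Zfpm1 and Zfpm2, also called FOG1 and FOG2, fell by 2.27 (SE 0.25, adjusted p = 0.000277) and 2.47 (SE 0.48, adjusted p = 0.00455, limma). Zfp521, a zinc finger protein that binds EBF1, was at 3.19 to 4.82 FPKM in 2D and at or below 0.0984 FPKM in 3D, and fell by 2.36 (SE 0.13, adjusted p = 1.06e-05, limma). Its relative Zfp423, a preadipocyte factor, fell by 0.27 (SE 0.042, adjusted p = 0.00162, limma) from levels of at most 0.255 FPKM. The E proteins, which pair with TCF21, were at 2.42 FPKM or more in all 8 libraries, with differences of -1.52 for Tcf4 (adjusted p = 0.00219), -0.29 for Tcf12 (adjusted p = 0.0466) and -0.20 for Tcf3 (adjusted p = 0.442, limma). Bcl11b, a partner of the COUP-TF receptors, rose from at most 0.0305 to at most 0.225 FPKM (adjusted p = 0.0330, limma), a call lost without 2D mice 3 and 4 (adjusted p = 0.136, limma) and, like that of Tcf12 (adjusted p = 0.270), without 2D mice 2 and 5 (adjusted p = 0.122, limma).

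**Figure D4:**
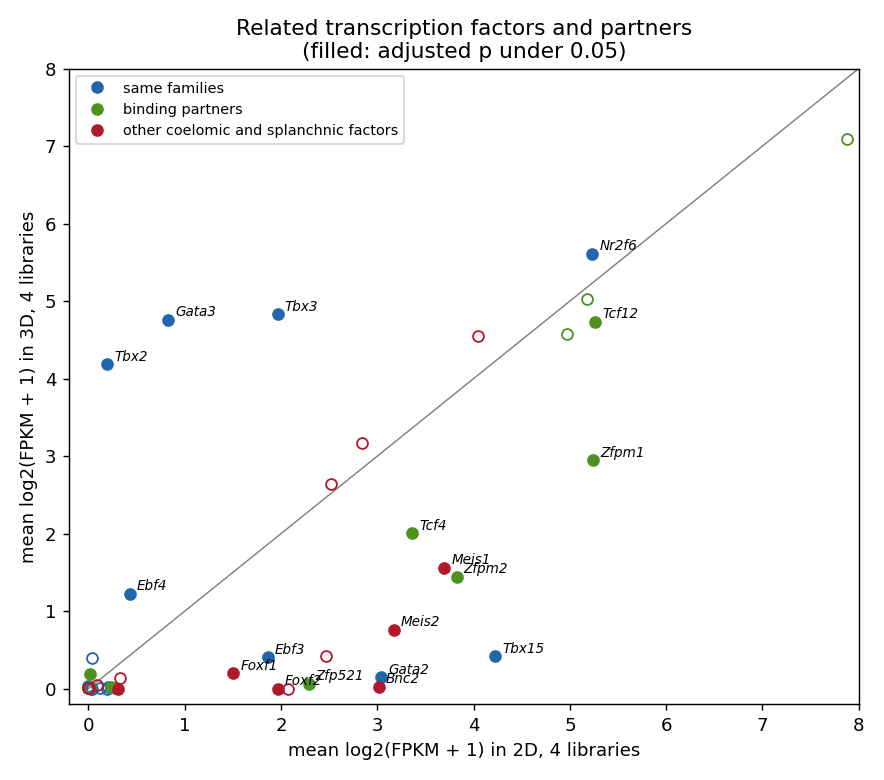
Mean level in 2D against mean level in 3D cultures (log2 of FPKM + 1) for relatives, partners and further factors of coelomic and splanchnic mesoderm, with filled points for an adjusted p under 0.05 and a line of equal level. Gata3, Tbx2 and Tbx3 lie on the 3D side, whereas Gata2, Tbx15, Zfpm1 and Zfp521 lie on the 2D side.

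Of 15 further transcription factors of coelomic epithelium and splanchnic mesoderm tested, 6 fell and none rose (median difference -0.39). Over all genes tested the shares were 20.3% lower and 21.2% higher. Bnc2, a zinc finger factor of mesenchyme, was at 4.46 to 11.2 FPKM in 2D and at or below 0.0389 FPKM in 3D (fell by 3.05, SE 0.24, adjusted p = 6.09e-05, limma). Foxf2, a forkhead factor of splanchnic mesenchyme, was at 0.964 to 4.35 FPKM in 2D and 0 in 3D (fell by 2.13, SE 0.28, adjusted p = 0.000664, limma). Foxf1, its paralog, was at 0.261 to 4.68 FPKM in 2D and at 0.118 to 0.167 FPKM in 3D (fell by 1.44, adjusted p = 0.0414, limma), a call lost without 2D mice 3 and 4 (adjusted p = 0.0924, limma). The homeobox factors Meis1 and Meis2 fell by 2.29 and 2.58 but remained at 1.38 to 2.76 and 0.144 to 1.45 FPKM in 3D. Emx2, a homeobox factor of the urogenital ridge, was at 11.7 to 24.2 FPKM in 2D and 18.5 to 27.9 FPKM in 3D (difference 0.60, adjusted p = 0.0667, limma). Without 2D mice 3 and 4 the difference was 0.82 (adjusted p = 0.0198, limma). That omission removes the highest 2D levels of Emx2, 14.8 and 24.2 FPKM, and so favours a call. Without 2D mice 2 and 5 the difference was 0.33 (adjusted p = 0.353, limma).

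Of 8 genes known as targets of WT1, 2 fell (Aldh1a2, the retinoic acid synthesis enzyme, and the cell cycle inhibitor Cdkn1a) and 2 rose (Spry1 and Wnt4), with a median difference of -0.02 and shares close to the 20.3% and 21.2% of all genes tested. Aldh1a2 was at 5.85 to 13.9 FPKM in all 2D libraries, 2D mice 2 and 5 with little Wt1 included, and at 0 to 1.35 FPKM in 3D (fell by 2.87, SE 0.33, adjusted p = 0.000355, limma). Podxl, a sialomucin of podocytes and mesothelium, was at 15.3 and 55.3 FPKM in 2D mice 3 and 4 and at 0.288 and 0.258 FPKM in 2D mice 2 and 5. In 3D mice 1, 4, 5 and 7 Podxl was at 1.37, 4.70, 6.36 and 2.69 FPKM, with Wt1 at or below 1.40 FPKM there. Of 4 adipocyte genes downstream of EBF factors tested, Pparg, the master regulator of adipocytes, was at 4.06 to 8.55 FPKM in 2D and at most 0.475 FPKM in 3D and fell by 2.56 (adjusted p = 0.000101, limma), and Cebpa and Prdm16 rose, by 1.47 and 2.57 (median difference of the 4 genes 0.79). Adipoq and Ucp1, genes of mature adipocytes, were listed at 0 in all 8 libraries.

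Genes that overlap a factor on the opposite strand could share reads with it if strand was not used in counting, a setting not given in the sources used here. Wt1os, which starts 19 bases from the start of Wt1 and does not overlap it in GENCODE M21, was at 0.854 and 1.48 FPKM in 2D mice 3 and 4 and 0 elsewhere. The noncoding gene 1010001N08Rik, chosen from the annotation after the values of Gata6 were seen, overlaps the Gata6 gene by 504 bases and was at 1.27, 19.0, 28.9 and 2.02 FPKM in 2D mice 2, 3, 4 and 5 and 0 in 3D (fell by 3.09, SE 0.77, adjusted p = 0.0138, limma). Both were highest in the libraries in which their coding neighbour was highest, and the sharing of reads between 1010001N08Rik and Gata6 was not tested. A830082K12Rik beside Nr2f1 had a difference of 0.05 (adjusted p = 0.926, limma).

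The genes most like a factor were taken as those with the highest Pearson correlation of log2(FPKM + 1) over the 8 libraries, among 12583 genes averaging 1 FPKM or more. The libraries share 2 cultures and the order is a description. For Wt1 they were Mst1r, Bnc1 and Tmem108 (r of 0.995 or more, and 0.965 to 0.999 over all genes named here), with Mst1r, a receptor kinase, at 12.5 and 17.4 FPKM in 2D mice 3 and 4 and at most 0.701 FPKM elsewhere. For Gata6 they were Mgp, Dab2 and E030003E18Rik, and the matrix protein Mgp was at 6.83, 125, 231 and 26.9 FPKM in 2D mice 2, 3, 4 and 5. For Tbx18 they were Sulf1, Ccl7 and Fbln5, and for Ebf1 Gp1bb, Hoxc10 and Twist2, of which the last, a mesenchymal helix-loop-helix factor, was at 21.4, 6.63, 14.5 and 19.9 FPKM in 2D and 0 in 3D. For Osr1 they were Bend6, Pknox1 and Plxna2, for Ebf2 Gpatch3, Ube2e1 and Eng, for Nr2f2 Lmf1, Vps9d1 and Agpat4. Those for Nr2f1 included Scamp4 and Gm6644. The correlation does not measure the size of a change. Pknox1 was at 6.04 to 8.07 FPKM in 2D and 5.24 to 5.41 FPKM in 3D, and Gpatch3 at 2.47 to 3.51 and 2.82 to 3.00 FPKM. Bend6 and Eng were at or below 0.203 FPKM in 3D.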

How the data were processed

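Total RNA of 8 primary ADSC cultures was sequenced, 4 in 2D and 4 in 3D, after depletion of ribosomal RNA with directional libraries. The authors mapped reads with TopHat to mm10 (per the labels) and computed FPKM with Cufflinks. The FPKM deposited by the authors had not been quantile normalized, although the study's methods name that step. Of 24346 symbols, 5484 were 0 throughout and 18862 were tested. Values were quantile normalized, and limma 3.58.1 in R 4.3.3 was fitted to log2(FPKM + 1) with an intensity trend, for 3D against 2D without covariates. P-values were adjusted over all genes tested (Benjamini-Hochberg, threshold 0.05). The fit was tested on simulated data.

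Depth was estimated from 875 genes with 1 transcript of at least 3000 bases, as the value at which 75% to 84.2% of low levels per library came within 0.2 of a whole fragment. Gene positions came from GENCODE M21, in which 23310 symbols (95.7%) were found. Upstream sequences were those of RefSeq, for 5 of the 10 factors. Wt1, Gata4, Gata6, Osr1 and Ebf2 were not matched there, and exons of the factors were not printed.

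The mouse numbers pair mice 4 and 5 across cultures, by the titles of the samples. The deviations of their 2D and 3D libraries from the culture means correlated at -0.05 (mouse 4) and -0.11 (mouse 5) over 12583 genes. Other libraries are separate mice, 1 culture each. The replicate error therefore covers mouse and culture together.

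The alternatives tried were no quantile normalization, median-ratio size factors, no intensity trend, a pseudocount of 0.1, a minimum mean of 1 FPKM, a block for the mouse, mice 4 and 5 alone and each library left out. Leaving out 2D mice 3 and 4, or 2D mice 2 and 5, was added after seeing the data. The factors and the lists of relatives, partners, coelomic factors, targets and cell type markers were chosen with earlier results of these data known. Named genes were the factors, genes of these lists and the 3 genes most like each factor (mean of 1 FPKM or more). A few of these genes are left out of the text.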

Additional observations from a re-analysis of the deposited data

Results flagged for a closer look

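A single library far from the other 3 of its culture was sought with Dixon's ratio, the gap to the nearest library divided by the range, in 26 groups of 4 libraries. The ratio was taken on log2(FPKM + 1) after quantile normalization, whereas the FPKM given below are as deposited. It exceeded the 95% critical value in 4 of the groups. Chance gives about 1 in 20 groups, a rate that does not hold for Tbx18 and Tcf21 below, where the other 3 libraries were 0 and the ratio is 1 for any value above 0. Wt1 in 3D mouse 1 was at 1.40 FPKM (ratio 0.907), above a level of 3 fragments of 0.133 FPKM. Ebf2 in 2D mouse 3 was at 0.187 FPKM (ratio 0.849), against 2.19 to 2.39 FPKM in the other 2D libraries. Tbx18 in 3D mouse 4 was at 0.0548 FPKM (ratio 1), where 3 fragments would give 0.0415 FPKM. Tcf21 in 2D mouse 4 was at 0.108 FPKM (ratio 1), under its level of 3 fragments of 0.137 FPKM.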

How the results depend on the processing

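With the mouse as a replicate block, every count was 0, for all genes, for the factors and for the lists, while Gata6, Tbx18, Osr1, Ebf1 and Ebf2 had an unadjusted p under 0.05. That fit has 1 residual degree of freedom. With the mouse as a random effect the 5 factors were called. The correlation within a mouse was estimated there at -0.044, so that fit is close to the one without a block. With mice 4 and 5 alone, 1432 genes were lower and 1788 higher, 4 factors were lower (Gata6 not called, -4.32, adjusted p = 0.0542, limma), and the list counts were 3 relatives higher, 0 partners higher, 3 coelomic factors lower, 1 WT1 target lower and 1 higher, 1 EBF target higher, 0 mesothelial genes higher, 5 stromal genes lower and 0 mural genes lower. No normalization or median-ratio factors each gave 0 mesothelial, 1 stromal and 1 gonadal gene higher and 1 endothelial gene lower. Without the intensity trend, 0 partners and 1 stromal gene were higher. Over genes averaging 1 FPKM or more, 0 partners and 1 coelomic factor were higher and 1 gonadal gene lower. A pseudocount of 0.1 gave 2 mesothelial, 1 gonadal, 2 mural, 3 endothelial and 1 macrophage gene lower.

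Without 2D mice 3 and 4, the difference of Wt1 was 0.13, a value that the omission fixes. In that fit 1 coelomic factor, 2 mesothelial genes and 0 stromal genes were higher. Lower were 1 mesothelial, 1 epididymal, 1 gonadal, 2 mural and 4 endothelial genes. Without 2D mice 2 and 5, 1 antisense gene, 7 mesothelial genes, 1 gonadal, 2 mural and 2 endothelial genes were lower, 1 gonadal gene was higher, and 0 partners, 0 mesothelial, 0 stromal and 0 macrophage genes were higher. Both omissions split the 2D libraries as their mesothelial levels did. Counts of genes divided in the same way, as were most mesothelial genes, Wt1os, Star and Kdr, follow from that split and test nothing. With 2D mice 3 and 4 left out, Gata6, Tbx18, Osr1, Ebf1, Ebf2 and Nr2f1 were lower (adjusted p = 0.0236 for Nr2f1, limma). That omission removes the lowest 2D levels of Nr2f1, Ebf1 and Ebf2. Calls were frequent in that fit, with 9245 of 18428 genes at an unadjusted p under 0.05 (limma). With 2D mice 2 and 5 left out, Gata6, Tbx18, Osr1 and Ebf1 were lower and Ebf2 was not called (adjusted p = 0.0892, limma). Wt1 and Gata4 are not counted there, since the omission fixes their values. In that second fit 8239 of 18575 genes had an unadjusted p under 0.05 (limma). Leaving out each library in turn gave 5 to 6 factors lower, 3204 to 3835 genes lower and 3393 to 4051 higher. The list counts that moved by over 1.5 times had these ranges: endothelial genes lower 0 to 2, epididymal genes lower 0 to 1, gonadal genes higher 0 to 1, gonadal genes lower 0 to 1, macrophage genes higher 1 to 2, macrophage genes lower 0 to 1, mesothelial genes higher 0 to 1, mesothelial genes lower 0 to 1, mural genes lower 1 to 2, partners higher 0 to 1, coelomic factors higher 0 to 1, stromal genes higher 0 to 2.

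The difference of Nr2f1 to Nr2f2 between cultures was -1.06 to -0.14 when each library was left out. A difference between libraries of low level (Tcf21, Gata4) is limited by the estimated depth, and counting error was not modelled because FPKM holds no counts.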

Other observations

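Markers of further cell types were read in the same libraries. Of 5 epididymal genes tested, none passed in either direction, and the highest summed level was 5.52 FPKM in 3D mouse 1. Of 5 genes of testicular somatic cells, none passed, and Star, which carries cholesterol into mitochondria, was at 14.6 and 11.8 FPKM in 2D mice 3 and 4 against 1.87 to 2.50 FPKM elsewhere. Of 5 endothelial genes none passed, with Kdr at 3.66 and 5.97 FPKM in 2D mice 3 and 4. Of 5 mural genes Rgs5 fell and Notch3 rose, and of 5 macrophage genes Cd68 rose, while Ptprc stayed at or below 0.0788 FPKM in all 8 libraries. The stromal marker Ly6a was at 50.3 FPKM in 3D mouse 1 and at 1627, 1735 and 2607 FPKM in the other 3D libraries.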
